A study of Mus musculus with 8 samples.

Results

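The genes described here are 4 ligands of the epidermal growth factor (EGF) family, Hbegf, Areg, Ereg and Nrg1, and the 4 ErbB receptor genes, Egfr, Erbb2, Erbb3 and Erbb4. They were picked by gene name and make up 8 of the 55679 genes in the deposited expression table, and each of the 8 names had 1 row. The study compared gene expression in the hypertrophied left ventricle of mice given angiotensin II (ANG II), a peptide hormone that raises blood pressure, with that of saline-treated mice. All mice were male wild-type C57BL/6J animals. In the control group, osmotic pumps under the skin delivered saline over 7 days (4 libraries). In the ANG II group, the pumps delivered ANG II at 1500 ng/kg/min over the same 7 days (4 libraries), and age was not given. The hearts were flushed with saline, and the sequenced libraries were built from polyadenylated RNA of the left ventricle, captured by oligo(dT). The methods call the sequenced samples of the study biological replicates, while the labels of these 8 libraries name no animals, and the p-values measure the spread between these libraries.

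EGF-family ligands are made as membrane-anchored precursors, and proteases at the cell surface release the active growth factor. A ligand brings ErbB receptors together in pairs, the paired tyrosine kinases phosphorylate each other, and adaptors then pass the signal to the Ras-ERK and PI3K-Akt cascades. In the heart, NRG1 from endothelial cells acts on ErbB4 and ErbB2 of cardiomyocytes, a route needed for cardiac development, while HB-EGF and EGFR have been studied as relays of angiotensin II signalling.

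Expression was given as FPKM, a fragment count scaled to the length of the transcript and to sequencing depth. The libraries held 14455654 to 16564828 fragments each, as read from the steps of the low values. At this depth the tested members rested on between 0 (Ereg) and 704 (Hbegf) fragments per library. Genes at or above 1 FPKM numbered 12397 to 12719 in control and 13123 to 13298 in ANG II. Mitochondrially encoded genes took 28.9 to 30.2% of all FPKM in control and 22.1 to 24.6% in ANG II, so the remaining genes shared a larger part of the total in ANG II, and the median log2 fold change of all genes tested was 0.15. The 3 rescalings of the libraries tried here brought this median to between -0.04 and 0.04. Cardiomyocyte markers such as Myl2 were the highest of the marker genes examined, at a mean level of 10947 ± 560.1 FPKM in the control libraries and 7890 ± 745 FPKM (SD, n = 4 each) in the ANG II libraries.

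Of the 8 genes, 7 had a mean of at least 0.1 FPKM and were tested with limma. A call required an adjusted p-value (Benjamini-Hochberg over all 19364 genes) under 0.05 together with an absolute log2 fold change above 0.5. Hbegf, Ereg and Egfr were called, all higher in ANG II, and none of the 7 was called lower by limma. Over all genes tested, 15.4% were called (14% higher and 1.41% lower). The count of members lower in ANG II was also 0 at an unadjusted limma p under 0.05 and with limma-voom on the recovered fragments. With median-of-ratios scaling and with quantile normalization, Erbb4 passed the adjusted p-value in the lower direction, short of the fold change threshold. With the adjusted p-value alone, 4 members passed, the 3 named and Erbb2, beside 33.3% of all genes (28.4% higher and 4.91% lower). The same 4 members had control and ANG II values that were fully apart, each higher in ANG II, as did 33.7% of all genes (28.7% higher and 5.06% lower). The median log2 fold change of the 7 was 0.43, beside 0.15 for all genes. Where no other scale is named, fold changes from limma are differences of log2(FPKM + 1) and so come out too small for genes with low values.

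**Figure D1:**
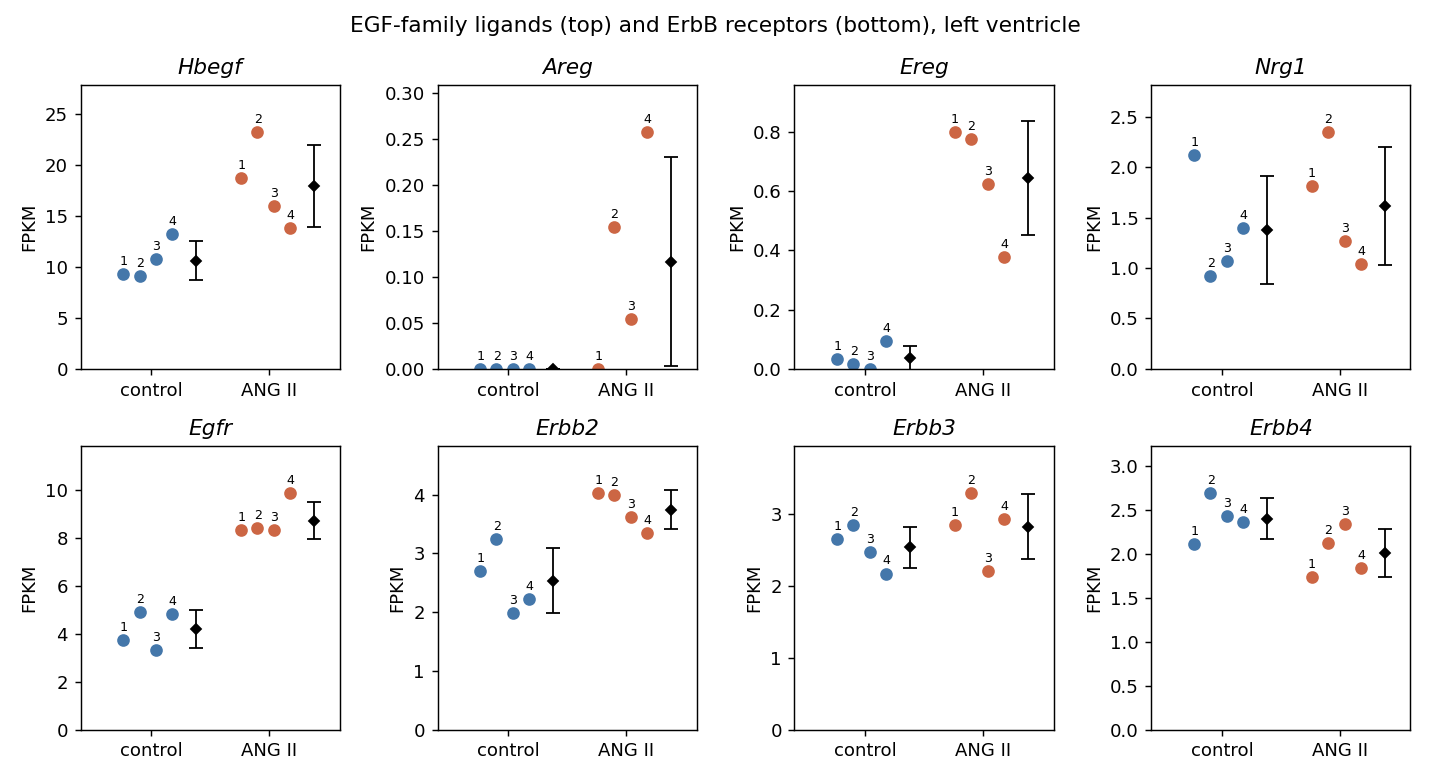
FPKM (y axis, starting at 0, a scale of its own in each panel) of the 4 ligand genes (top) and the 4 receptor genes (bottom) in the control (blue) and ANG II (orange) libraries. Each point is 1 library with its replicate number, and the black diamond and bar are the group mean ± SD (n = 4). Control and ANG II points are apart at Hbegf, Ereg, Egfr and Erbb2 and overlap at Nrg1, Erbb3 and Erbb4, and Areg is at 0 in all 4 control libraries.

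Among the ligands, Hbegf encodes heparin-binding EGF-like growth factor, which binds EGFR and ErbB4. It (ENSMUSG00000024486) lies on the minus strand of chromosome 18 from 36504927 to 36515805 (GRCm38). It was the most abundant of the 4 ligands per length and rose by 1.69-fold on the FPKM scale. The control libraries stood at 9.34, 9.10, 10.8 and 13.2 FPKM (replicates 1 to 4). The ANG II libraries stood at 18.7, 23.2, 16.0 and 13.8 FPKM. The groups came close without overlapping, since the lowest ANG II library (replicate 4) lay just above the highest control library (replicate 4). The means were 10.6 ± 1.89 and 17.9 ± 4.03 FPKM (SD, n = 4 each, exact two-sided permutation p = 0.0286, the smallest that 4 against 4 allow). The log2 fold change was 0.69 (SE 0.157, 95% interval 0.34 to 1.05) and the adjusted p-value 0.00739 by limma with Benjamini-Hochberg adjustment. Measured from the median of all genes, the log2 change was 0.55. With median-of-ratios scaling the call was lost (log2 fold change 0.48, limma adjusted p = 0.0599 after Benjamini-Hochberg), as it was with quantile normalization (0.45, adjusted p = 0.0739), and it was kept without mitochondrial and the most abundant genes (0.53, adjusted p = 0.0348).

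Ereg encodes epiregulin, which also binds EGFR and ErbB4. It (ENSMUSG00000029377, chromosome 5, 91074622 to 91093646, plus strand) was near the limit of detection in control and rose in ANG II. The control libraries held 2, 1, 0 and 6 fragments, or 0.0335, 0.0166, 0 and 0.0950 FPKM. The ANG II libraries held 50, 51, 39 and 25 fragments, or 0.799, 0.775, 0.625 and 0.379 FPKM. Every ANG II library was above every control library, although the level in ANG II stayed under 1 FPKM. Summed over the group and divided by depth, the 165 fragments in ANG II against 9 in control gave a ratio of 17.96, with an exact 95% interval of 9.23 to 39.96 that covers counting error only. On the log2(FPKM + 1) scale the change was 0.66 (SE 0.106, 95% interval 0.42 to 0.90, adjusted p = 0.00114 by limma with Benjamini-Hochberg adjustment), with an exact two-sided permutation p of 0.0286. The call was kept under all 3 rescalings, while the size depended on the scale, with 2.45 at a pseudocount of 0.1 FPKM and 4.41 by limma-voom on the recovered fragments. Of its exon bases, 3.42% lie under the opposite-strand gene Gm19610, and the use of strand in the counting was not stated.

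Areg encodes amphiregulin, which binds EGFR alone of the receptors, and its gene neighbours Ereg on chromosome 5 (ENSMUSG00000029378, 91139599 to 91148432, plus strand). No fragment of Areg was found in any control library, where a floor of 3 fragments per library would have given 0.149 to 0.171 FPKM. The ANG II libraries held 0, 3, 1 and 5 fragments, or 0, 0.155, 0.0544 and 0.258 FPKM. The groups therefore overlapped at 0, in ANG II replicate 1. The exact two-sided permutation test on FPKM gave p = 0.143 (n = 4 each), and the gene was too low to be tested by limma.

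Nrg1 encodes neuregulin-1, the ligand of ErbB3 and ErbB4. It (ENSMUSG00000062991, chromosome 8, 31814551 to 32884029, minus strand) stood at 2.12, 0.925, 1.07 and 1.39 FPKM in control and at 1.82, 2.35, 1.27 and 1.04 FPKM in ANG II. The values of the groups were interleaved, with control replicate 1 and ANG II replicate 2 at the top. The means were 1.38 ± 0.534 and 1.62 ± 0.584 FPKM (SD, n = 4 each), and the log2 difference of 0.14 (SE 0.195, 95% interval -0.30 to 0.58) did not pass the test (adjusted p = 0.624 by limma with Benjamini-Hochberg adjustment). The interval reaches above the fold change threshold, so a rise of that size could not be told from none at this spread. With quantile normalization the sign turned (-0.11, limma adjusted p = 0.706 after Benjamini-Hochberg), and the difference was 0.0068 with median of ratios and 0.036 without mitochondrial and the most abundant genes. The annotation lists 18 transcripts of Nrg1, and its fragment numbers could not be read as whole from the mean transcript length. The ratio of Hbegf to Nrg1 was 4.40 to 10.1 in control and 9.88 to 13.3 in ANG II, so the groups overlapped.

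Among the receptors, Egfr encodes the EGF receptor, shared by HB-EGF, epiregulin and amphiregulin. It (ENSMUSG00000020122, chromosome 11, 16752203 to 16918158, plus strand) had the highest log2 fold change of the 7 tested members on the log2(FPKM + 1) scale and rose by 2.08-fold on the FPKM scale. The control libraries stood at 3.75, 4.94, 3.33 and 4.82 FPKM, on 160 to 218 fragments each. The ANG II libraries stood at 8.33, 8.42, 8.33 and 9.89 FPKM, on 372 to 467 fragments each. The groups were far apart, with a gap between them wider than the range within either group. The means were 4.21 ± 0.794 and 8.74 ± 0.768 FPKM (SD, n = 4 each, exact two-sided permutation p = 0.0286). The log2 fold change was 0.91 (SE 0.119, 95% interval 0.65 to 1.18) with an adjusted p-value of 3.66e-04 by limma with Benjamini-Hochberg adjustment, and it ranked 984 among the 19364 genes by fold change. The call was kept under each rescaling, with log2 fold changes of 0.72 (median of ratios), 0.61 (quantile) and 0.76 (without mitochondrial genes and the 10 most abundant genes).

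Erbb2 encodes the receptor without a known ligand of its own, the common partner of the other ErbB receptors. It (ENSMUSG00000062312, chromosome 11, 98412470 to 98437716, plus strand) stood at 2.70, 3.24, 1.99 and 2.21 FPKM in control and at 4.03, 4.00, 3.61 and 3.34 FPKM in ANG II. All ANG II libraries were above all control libraries, by a small margin over the highest control library (replicate 2). The means were 2.54 ± 0.555 and 3.75 ± 0.328 FPKM (SD, n = 4 each, exact two-sided permutation p = 0.0286). The log2 fold change of 0.43 (SE 0.126, 95% interval 0.15 to 0.72) had an adjusted p-value of 0.0243 by limma with Benjamini-Hochberg adjustment and lay below the fold change threshold, so Erbb2 was not called. Without control replicate 2 it was called (0.53, limma adjusted p = 0.00971 after Benjamini-Hochberg), and without control replicate 3, control replicate 4, ANG II replicate 1 or ANG II replicate 2 the adjusted p-value no longer passed (0.0632 to 0.0691). It did not pass under the rescalings either, with log2 differences of 0.26 for median of ratios (adjusted p = 0.147), 0.12 for quantiles (0.505) and 0.30 without mitochondrial and the most abundant genes (0.111).

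Erbb3 encodes a receptor with little kinase activity of its own that binds neuregulins. It (ENSMUSG00000018166, chromosome 10, 128567523 to 128589652, minus strand) stood at 2.66, 2.85, 2.47 and 2.17 FPKM in control and at 2.85, 3.29, 2.21 and 2.93 FPKM in ANG II. The groups overlapped, and ANG II replicate 3 was lower than 3 of the 4 control libraries. The means were 2.54 ± 0.287 and 2.82 ± 0.451 FPKM (SD, n = 4 each), and the log2 difference of 0.11 (SE 0.118, 95% interval -0.16 to 0.37, adjusted p = 0.522 by limma with Benjamini-Hochberg adjustment) turned to -0.058, -0.21 and -0.021 under the rescalings by median of ratios, by quantiles and without mitochondrial and the most abundant genes.

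Erbb4 encodes the neuregulin receptor of cardiomyocytes. It (ENSMUSG00000062209, chromosome 1, 68032186 to 69108059, minus strand) stood at 2.11, 2.69, 2.43 and 2.36 FPKM in control and at 1.73, 2.13, 2.34 and 1.83 FPKM in ANG II. With the deposited values it was the single tested member with a lower mean in ANG II, and the groups overlapped. The means were 2.40 ± 0.236 and 2.01 ± 0.277 FPKM (SD, n = 4 each, exact two-sided permutation p = 0.0857). The log2 difference was -0.18 (SE 0.108, 95% interval -0.42 to 0.06, adjusted p = 0.241 by limma with Benjamini-Hochberg adjustment). Measured from the median of all genes it was -0.32, and the adjusted p-value was 0.0482 with median-of-ratios scaling (-0.33) and 0.0127 with quantile normalization (-0.47), short of the fold change threshold in both. Without mitochondrial and the most abundant genes it did not pass (-0.30, limma adjusted p = 0.0691 after Benjamini-Hochberg).

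**Figure D2:**
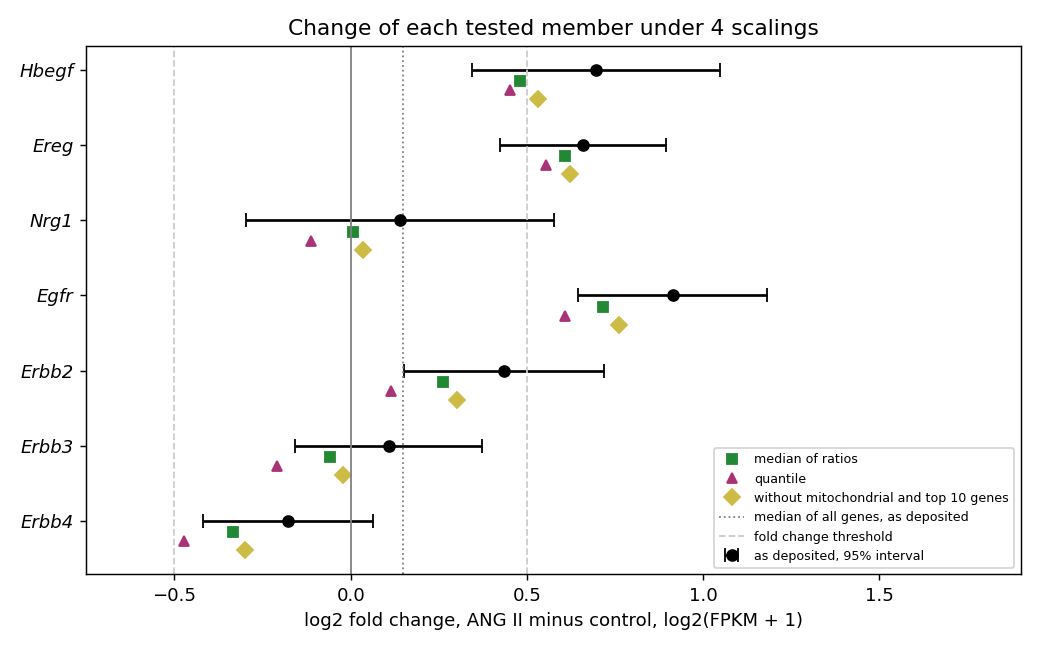
Log2 fold change on the log2(FPKM + 1) scale (x axis, ANG II minus control) of the 7 tested genes. Black points and bars give the deposited values with 95% intervals, coloured symbols give 3 rescalings, the dotted line is the median of all genes (0.15) and the dashed lines are the fold change threshold (0.5 in either direction). Egfr and Ereg lie above the threshold under all 4 scalings, Hbegf falls just below it under the median-of-ratios and quantile scalings, and Erbb3 and Nrg1 lie near 0.

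Upstream sequences were shown for Egfr, Erbb2 and Erbb4, because their responses differed (called, higher but not called, and lower in mean without passing the test), and for Areg, because it was the single ligand gene of the 4 with a promoter entry. They come from the RefSeq promoter table (GRCm38.p6), in which 4 of the 8 members matched. Only bases before the annotated start are printed, 5′ to 3′ on the strand of the gene, and capitals mark matches to the motifs named next.
Egfr (chr11:16751953-16752202, plus strand): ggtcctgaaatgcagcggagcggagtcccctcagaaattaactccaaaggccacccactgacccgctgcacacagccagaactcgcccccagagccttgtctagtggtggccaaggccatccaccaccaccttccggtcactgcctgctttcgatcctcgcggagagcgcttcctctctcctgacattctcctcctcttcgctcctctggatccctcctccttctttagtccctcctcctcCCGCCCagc
Erbb2 (chr11:98412234-98412469, plus strand): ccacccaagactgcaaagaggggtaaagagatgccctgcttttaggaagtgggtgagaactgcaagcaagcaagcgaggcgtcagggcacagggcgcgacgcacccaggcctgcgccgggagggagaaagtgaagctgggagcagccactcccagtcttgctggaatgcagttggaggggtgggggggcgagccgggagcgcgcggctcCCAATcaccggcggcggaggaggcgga
Erbb4 (chr1:69108060-69108309, minus strand): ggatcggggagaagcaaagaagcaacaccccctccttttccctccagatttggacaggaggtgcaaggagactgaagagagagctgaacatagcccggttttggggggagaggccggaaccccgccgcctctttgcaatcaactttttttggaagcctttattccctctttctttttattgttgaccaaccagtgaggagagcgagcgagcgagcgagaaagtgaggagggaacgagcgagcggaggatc
Areg (chr5:91139349-91139598, plus strand): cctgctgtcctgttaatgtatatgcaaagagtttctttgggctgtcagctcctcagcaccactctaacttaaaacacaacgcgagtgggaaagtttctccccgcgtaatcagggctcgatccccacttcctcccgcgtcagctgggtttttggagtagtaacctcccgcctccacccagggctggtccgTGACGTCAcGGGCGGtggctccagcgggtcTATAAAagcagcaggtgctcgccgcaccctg
Each 300-base RefSeq window was searched on both strands for the GC box GGGCGG, the CCAAT box CCAAT, the TATA box TATAAA, the AP-1 site TGANTCA, the cyclic AMP response element TGACGTCA and the E-box CACGTG. Of 32851 promoters, 35.7% held the GC box, 37.4% CCAAT, 13.6% TATAAA, 7.81% the AP-1 site, 1.79% the cyclic AMP response element and 7.15% the E-box. The Egfr window held 1 GC box, on the opposite strand with its start at -9 from the RefSeq start. The Erbb2 window held 1 CCAAT box at -41, and the Erbb4 window held none of the 6 motifs. The Areg window held the cyclic AMP response element at -61, a GC box at -52, TATAAA at -31 and a further GC box at 37. The GC content was 62.3% for Egfr, 66.0% for Erbb2, 55.3% for Erbb4 and 59.3% for Areg, beside a median of 52.7% over all promoters. No match overlapped another, and binding was not measured.

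The balance of the receptors was next read within each library, where the scaling of the library cancels out. Egfr made up 33.4, 36.0, 32.6 and 41.7% of the summed receptor FPKM in the control libraries. In the ANG II libraries it made up 49.2, 47.2, 50.5 and 55.0%. The groups were thus apart, and Egfr held the largest share in all 8 libraries, at the transcript lengths behind the deposited values. The share of Erbb4 was 18.8 to 23.8% in control and 10.2 to 14.2% in ANG II, again apart. The share of Erbb3 was 18.8 to 24.2% in control and 13.4 to 18.5% in ANG II, apart by a narrow margin. The share of Erbb2 overlapped, with 19.1 to 24.1% in control and 18.6 to 23.8% in ANG II. The summed receptor level was 10.2 to 13.7 FPKM in control and 16.5 to 18.0 FPKM in ANG II. These shares were not tested, since they are made from values already compared singly.

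**Figure D3:**
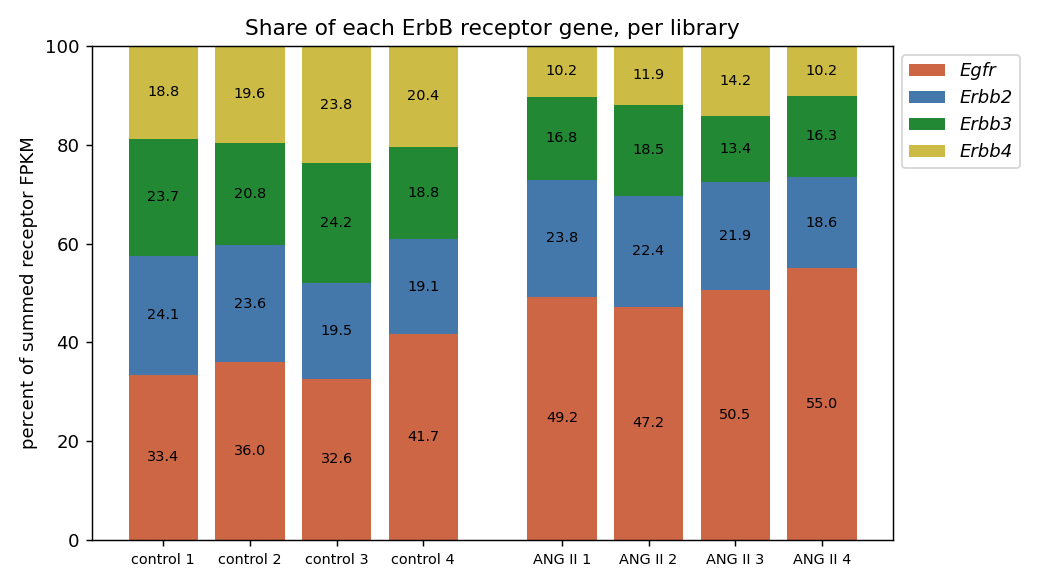
Share of each ErbB receptor gene in the summed FPKM of the 4 receptor genes (y axis, percent), with 1 bar per library. The Egfr segment (bottom) covers 32.6 to 41.7% in the control bars and 47.2 to 55.0% in the ANG II bars, and the Erbb4 segment (top) is narrower in every ANG II bar than in any control bar.

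The ratio of Egfr to Erbb4 was 1.77, 1.84, 1.37 and 2.04 in control and 4.80, 3.96, 3.56 and 5.40 in ANG II. The ratio of Erbb2 to Erbb4 also separated the groups, with 0.820 to 1.28 in control and 1.54 to 2.32 in ANG II. The ratio of Egfr to Erbb2 overlapped (1.39 to 2.18 and 2.07 to 2.96). The overlap came from control replicate 4 (2.18), which lay above ANG II replicates 1 (2.07) and 2 (2.11). The mean ratio was 1.69 (SD 0.346) for the control libraries and 2.36 (SD 0.413) for the ANG II libraries. Whether Egfr changed beyond Erbb2 was not tested. Between ligand and receptor, Hbegf over Egfr overlapped (1.84 to 3.24 in control and 1.40 to 2.75 in ANG II), as did Nrg1 over Erbb4 (0.344 to 1.00 and 0.544 to 1.10).

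FPKM is a value per length, so the levels of the members can be put in order. In control the order of mean FPKM was Hbegf, Egfr, Erbb2, Erbb3, Erbb4, Nrg1, Ereg and Areg. Hbegf lay above Egfr, and Egfr above Erbb2, with no overlap of ranges. Erbb2, Erbb3 and Erbb4 each overlapped the next in the order, as did Ereg, and the remaining neighbours were apart. In ANG II the order was the same, and Erbb2 was then apart from Erbb3, and Ereg from Areg. The order depended on the length used, since with the longest annotated transcripts Erbb3 lay next below Hbegf in both groups. In ANG II, Ereg (0.644 FPKM) then lay above Nrg1 (0.619 FPKM), with overlapping ranges. The place of Egfr depended on the length as well. The deposited values divide by the mean length of the annotated transcripts (2955.2 bases for the 5 of Egfr), and with the longest transcript (10208 bases) the control mean of Egfr became 1.22 FPKM, below the 2.54 of Erbb3 and the 1.66 of Erbb2. With the longest transcripts throughout, Hbegf, Ereg and Egfr were again the members called, and the log2(FPKM + 1) difference of Egfr was 0.67 (limma adjusted p = 8.77e-04 after Benjamini-Hochberg) in place of 0.91. Egfr then made up 16.6 to 23.0% of the receptor sum in control and 26.2 to 32.5% in ANG II, still apart, and Erbb3 held the largest share in 7 of the 8 libraries.

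The other genes of the pathway were taken from lists chosen by function. Of the 7 other EGF-family ligands, 5 were tested and none was called by limma (0 called by limma-voom as well, and 0 with an unadjusted limma p under 0.05), with a median log2 fold change of 0.16 beside 0.15 for all genes. Egf, the founding ligand of the family, had mean levels of 2.36 and 1.76 FPKM in control and ANG II (log2 difference -0.30, adjusted p = 0.170 by limma with Benjamini-Hochberg adjustment), and passed both thresholds in the lower direction with quantile normalization alone (-0.59, adjusted p = 0.0175). Tgfa, transforming growth factor alpha, was at 0.520 and 0.734 FPKM, and Btc, betacellulin, at 1.34 and 1.57 FPKM. The neuregulin genes Nrg2 (0.783 and 0.990 FPKM) and Nrg4 (1.35 and 1.82 FPKM) did not pass either. Epgn was at 0.0752 and 0.0875 FPKM, too low to be tested, and Nrg3 was at 0 in all 8 libraries.

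The proteases that release EGF-family ligands, with their partners, held the most calls. Of 10 genes tested, 7 were called higher and 0 lower, and the median log2 fold change was 0.64, where 14% of all genes were called higher. Adam12, a metalloprotease known to cleave HB-EGF, rose from 0.449 to 5.90 FPKM (log2 fold change 2.20, SE 0.196). Adam8, a metalloprotease of leukocytes, rose from 0.683 to 4.53 FPKM (1.71, SE 0.133). Adam9 rose from 26.3 to 47.0 FPKM (0.81, SE 0.0621) and Cd9, a tetraspanin that binds the HB-EGF precursor, from 23.8 to 42.2 FPKM (0.81, SE 0.128). These 4 had adjusted p-values of 1.95e-05 to 0.00105 by limma with Benjamini-Hochberg adjustment and kept their calls under the 3 rescalings. Adam10, Adam15 and Rhbdf1 were also called, and of these Adam15 and Rhbdf1 were called under none of the rescalings and Adam10 not under median of ratios. Adam17, the main protease for HB-EGF, amphiregulin and epiregulin, went from 23.2 to 29.3 FPKM (0.32, limma adjusted p = 0.00153 after Benjamini-Hochberg), below the fold change threshold, and did not pass under the 3 rescalings (0.10 to 0.15, adjusted p = 0.0677 to 0.213). Adam19 had a log2 difference of -0.47 and was called lower under each of the 3 rescalings (-0.64 to -0.69).

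Inhibitors of the receptors and genes of receptor turnover gave 1 call among 10 tested, a higher one, beside 14% of all genes called higher. It was Lrig3, a membrane protein of the family that includes the EGFR inhibitor LRIG1, which rose from 1.06 to 2.39 FPKM (log2 fold change 0.72, SE 0.109, adjusted p = 8.75e-04 by limma with Benjamini-Hochberg adjustment) and was not called with quantile normalization (0.45). The median of the list was 0.23. A further 4 genes (Cbl, Cblb, Socs5 and Usp8) passed the adjusted p-value at log2 fold changes of 0.25 to 0.42. None of these 4 passed it with median of ratios or quantile normalization, and Cbl alone passed it (0.25, limma adjusted p = 0.0409 after Benjamini-Hochberg) without mitochondrial and the most abundant genes.

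Of 20 adaptors and kinases of the Ras-ERK and PI3K-Akt cascades, 2 were called higher and 0 lower, with a median of 0.17, beside 14% higher and 1.41% lower over all genes. Shc1, the adaptor that links ErbB receptors to GRB2 and SOS, rose from 17.8 to 32.6 FPKM (log2 fold change 0.83, SE 0.0859, limma adjusted p = 1.05e-04 after Benjamini-Hochberg) and was called under the 3 rescalings (0.61 to 0.66). Mapk3, which encodes ERK1, rose from 48.3 to 70.4 FPKM (0.54, SE 0.0631) and was called under none of the 3 rescalings. Gab1, a docking protein of receptor tyrosine kinases, went from 18.4 to 14.7 FPKM with groups apart (-0.30, limma adjusted p = 0.0213 after Benjamini-Hochberg) and was called lower with median of ratios (-0.52, adjusted p = 0.00153) and quantile normalization (-0.54, adjusted p = 0.00135), so that the list then held 1 higher and 1 lower call.

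Among 16 feedback and early target genes of ERK, 4 were called higher and 0 lower, with a median of 0.27, beside the same shares over all genes. Ier3, an immediate early gene, rose from 16.4 to 39.5 FPKM (log2 fold change 1.25, SE 0.163), and Etv4, an ETS transcription factor, from 0.691 to 2.73 FPKM (1.13, SE 0.199). Fos rose from 6.56 to 16.1 FPKM (1.06, SE 0.281) and Myc from 2.25 to 4.87 FPKM (0.84, SE 0.120). The adjusted p-values of these 4 were 3.74e-04 to 0.0163 by limma with Benjamini-Hochberg adjustment, and Fos lost its call with quantile normalization (adjusted p = 0.0651). Phlda1 went from 4.65 to 3.54 FPKM (-0.30, limma adjusted p = 0.154 after Benjamini-Hochberg) and was called lower with quantile normalization (-0.62, adjusted p = 0.00940), where the list held 3 higher calls and 1 lower call. The ERK phosphatase gene Dusp6 (19.6 and 21.1 FPKM) and the sprouty gene Spry4 (5.27 and 4.89 FPKM), which encode feedback inhibitors, did not pass the test. Spred1, which encodes another inhibitor of the cascade, went from 12.3 to 17.4 FPKM with groups apart. Its log2 difference of 0.47 (limma adjusted p = 0.00462 after Benjamini-Hochberg) lay below the fold change threshold, and it was called higher by limma-voom (0.51). It did not pass the adjusted p-value with median of ratios or quantile normalization, and did without mitochondrial and the most abundant genes (0.31, limma adjusted p = 0.0438 after Benjamini-Hochberg).

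**Figure D4:**
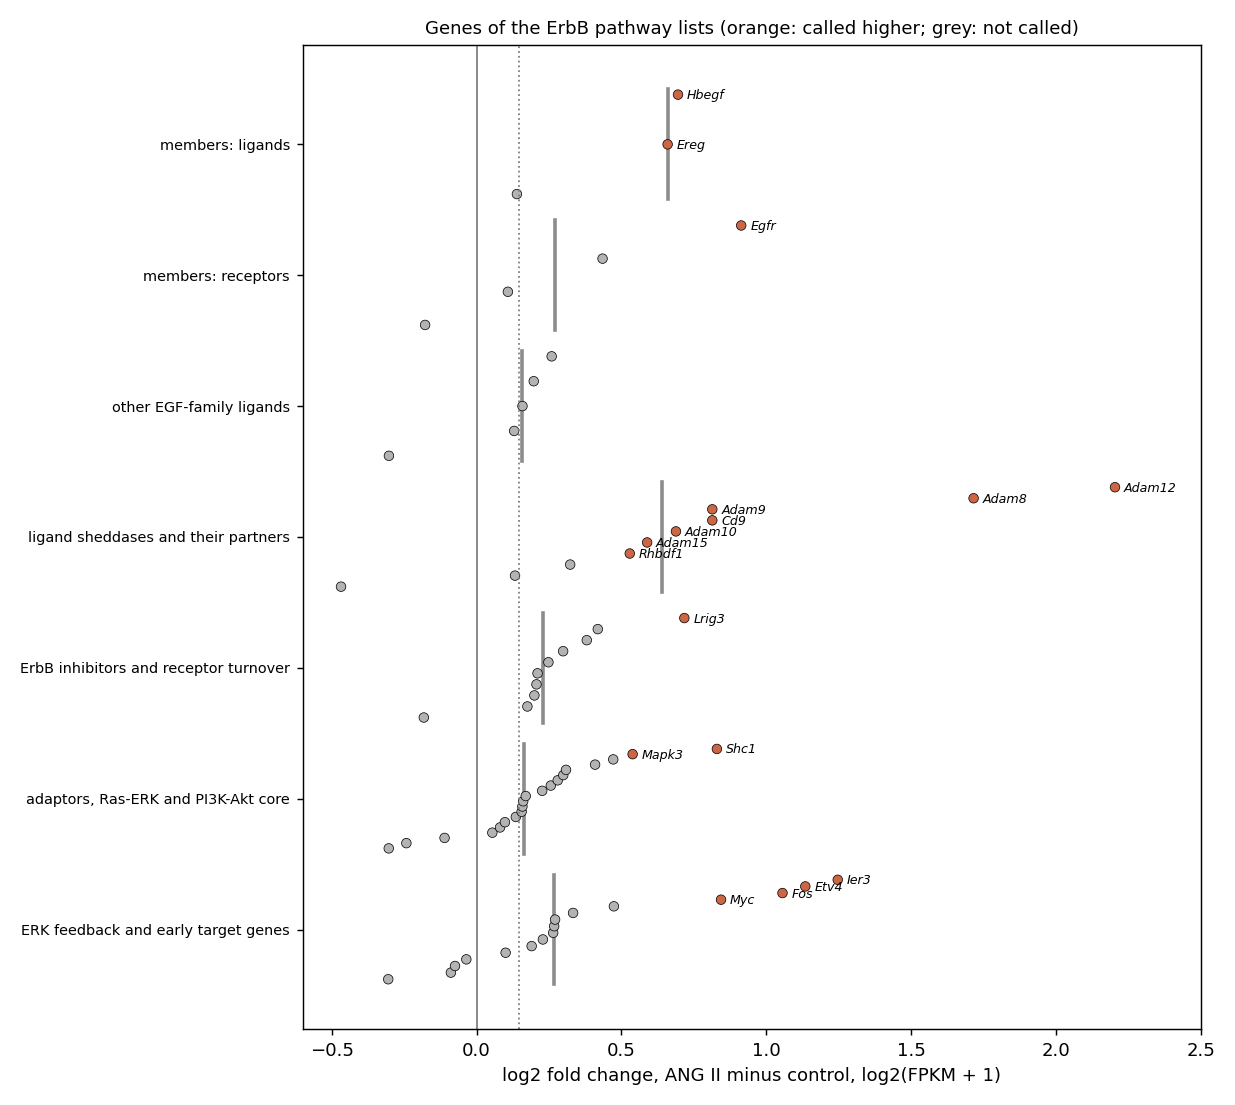
Log2 fold change on the log2(FPKM + 1) scale (x axis, ANG II minus control) of each tested gene of the 7 ErbB pathway lists, with 1 point per gene, spread vertically for legibility. Orange points were called higher and are named, grey points were not called, grey bars are list medians and the dotted line is the median of all genes (0.15). The list of sheddases and their partners holds 7 named points and a median of 0.64.

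The left ventricle is a mixture of cells, and fewer cells of a type and less RNA per cell cannot be told apart in these libraries. Markers of several cell types moved with the treatment, beside 14% of all genes called higher and 1.41% called lower. All 7 fibroblast markers were called higher, their summed levels were 501 to 751 and 2770 to 3245 FPKM in the control and ANG II libraries, and none was at 0. Of the fibroblast markers, Col3a1 had the highest mean over all 8 libraries (162 FPKM in control, below Dcn at 293, and 1190 FPKM in ANG II) and Col1a1 the largest log2 fold change (3.25). All 8 macrophage markers were called higher, with summed levels of 232 to 294 and 503 to 705 FPKM, and none was at 0. Lyz2 had the highest mean of these (133 and 276 FPKM) and Cd68 the largest log2 fold change (1.71). Pdgfra and Cd14 were called under none of the rescalings, and Tcf21 not with quantile normalization. Of 9 cardiomyocyte markers, 2 were called lower, Myh6 and Tnni3, the latter by more (-0.58), and the sums were 47619 to 48546 and 35766 to 38464 FPKM. The count of lower calls was 5 with median of ratios, 4 without mitochondrial and the most abundant genes, and 1 with quantile normalization, where Pln was called (-0.59) and neither Myh6 nor Tnni3 was. Endothelial markers gave 2 higher calls of 7, with sums of 420.4 to 436.6 and 471.7 to 523 FPKM. Cdh5 had the highest mean of these (112 and 133 FPKM) and Vwf the larger log2 fold change of the 2 called (0.56), and neither call was kept under the rescalings. Smooth muscle and pericyte markers gave 2 higher calls and 1 lower call of 8, with sums of 536 to 616 and 576 to 640.5 FPKM. Rgs5 had the highest mean of these (340.2 and 402 FPKM) and Cnn1 the largest log2 fold change (1.18), and the call of Pdgfrb was lost under all 3 rescalings. Of the 5 atrial markers, 4 were tested and 2 were called higher. Their sums ranged over 2.34 to 54.3 FPKM in control and over 68.0 to 246 FPKM in ANG II, led by Myl4 (15.7 and 63.5 FPKM) with the largest called change at Dkk3 (1.74), and Bmp10 was at 0 in all control libraries. The groups of Sln, the other atrial marker called, overlapped, and its call was lost with median of ratios and quantile normalization. These shifts stand in the same libraries as the higher Hbegf, Ereg and Egfr, and their part in those results was not tested.

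The genes whose pattern over the 8 libraries lay nearest to that of each called member were found among 11916 genes averaging 1 FPKM or more, names that hold only an ID left out, by the root mean square difference of mean-centred log2(FPKM + 1) values. For Egfr they were Sfxn3 (0.0917), Dsel (0.0917) and Itih2 (0.0949). For Hbegf they were Lrrn2 (0.131), Tef (0.136) and Igsf23 (0.153). For Ereg they were Vwa5a (0.0449), Pls3 (0.0515) and Stt3a (0.0591). In control and ANG II their means were 37.3 and 59.8, 35.2 and 56.5, and 32.9 and 50.3 FPKM. Ereg had means of 0.0363 and 0.644 FPKM, far below them. Their nearness to Ereg holds on the log2(FPKM + 1) scale, where changes at low values come out too small. All 9 had higher means in the ANG II group, by log2 fold changes of 0.59 (Stt3a) to 0.96 (Dsel). Such a rise was favoured by choosing genes near members already called higher, and the distance is a description without a test.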

How the data were processed

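The 8 libraries were assigned to control or ANG II from their treatment labels, and the further samples that the study describes were not analysed here. The authors deposited 1 table of FPKM values, with 1 column per library and no pooling, and all of its columns were used. The submitters' processing notes name Bowtie2, HISAT and RSEM. Versions, genome build, annotation and use of strand are not given in the sources used here. The study names limma and edgeR with thresholds of 0.05 (adjusted p) and 0.5 (log fold change, whose base is not given), and base 2 was used here.

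Fragments were recovered from the steps of the FPKM values. After multiplication by mean transcript lengths from GENCODE M21 (GRCm38), which holds 55141 of the 55679 gene IDs, 99.2% of low values (under 60 fragments) of single-exon genes and 97.8% of those of genes with several exons were whole within 0.05 fragments. Intervals and the floor of 3 fragments cover counting error only, since no molecular identifiers were used. No pair of libraries of a group agreed within sampling noise (chi-square per gene of at least 6.89).

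limma 3.58.1 (R 4.3.3, lmFit and trended eBayes) was run two-sided on log2(FPKM + 1) over the genes whose mean reached 0.1 FPKM, without a block. Exact permutation tests used all 70 allocations. The 8 members and all gene lists were chosen with earlier results of these data known, so no p-value was adjusted over a list alone. Named were the members, up to 4 called genes of each pathway list by size of change and every listed ligand, the most abundant and the most changed called gene of each marker list, and the 3 nearest genes in pattern per called member. Other genes named were chosen after their values were seen. The limma step was tested on simulated data.

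Alternatives changed the pseudocount, the filter, the scaling, the variance trend, the block, the thresholds and the libraries included. A further 2, limma-voom on recovered fragments and the longest transcript as length, were chosen after seeing the data. Exact tests used scipy 1.17.1, tables pandas 2.3.3 with numpy 2.4.6, and plots matplotlib 3.10.9, in Python 3.11.15.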

Additional observations from a re-analysis of the deposited data

Results flagged for a closer look

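In 3 of 40 groups of 4 libraries checked (FPKM, receptor shares and ratios of the members), 1 library stood far from the other 3 by Dixon's criterion, where chance gives about 1 in 20. Egfr in ANG II replicate 4 was at 9.89 FPKM, with the others at 8.33 to 8.42. The ratio of Erbb3 to Erbb4 in ANG II replicate 3 was 0.945, with the others at 1.55 to 1.64. The ratio of Hbegf to Nrg1 in control replicate 1 was 4.40, with the others at 9.49 to 10.1. With any 1 library left out, the log2 fold change of Egfr was 0.83 to 0.98 and the call was kept.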

How the results depend on the processing

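The call of Egfr was kept under every scaling, filter, pseudocount, variance trend, replicate block and library left out (adjusted p up to 0.00425, limma with Benjamini-Hochberg), as was that of Ereg where it was tested (up to 0.00763, with the block). A filter at a mean of 1 FPKM removed Ereg. Hbegf was no longer called with median-of-ratios scaling (0.48) or quantile normalization (0.45). Above an absolute log2 fold change of 1 on the log2(FPKM + 1) scale no member was called (Egfr 0.91, Hbegf 0.69, Ereg 0.66), 795 genes were called in all, and the adaptors and the inhibitors held 0 calls each and the sheddases 2. These sizes depended on the scale. At a pseudocount of 0.1 FPKM they were 1.05 for Egfr, 0.74 for Hbegf and 2.45 for Ereg. By limma-voom they were 1.07, 0.74 and 4.41. With the adjusted p-value alone, 6447 genes, Erbb2 (0.43), 5 inhibitors and 9 adaptors passed. Erbb2 was also called with a pseudocount of 0.1 (0.56) and with limma-voom (0.59), and its log2 fold change ranged from 0.36 to 0.53 with each library left out. Nrg1 turned to -0.11 with quantile normalization, and Erbb3 to -0.058 with median of ratios, -0.21 with quantile normalization and -0.021 without mitochondrial and the 10 most abundant genes. Quantile normalization gave 1 call among the other ligands (Egf, lower) and 0 among the inhibitors. The adaptors gave 1 call without mitochondrial and abundant genes, and 1 to 3 with each library left out, with 1 without control replicate 3. The cause of these shifts was not tested.

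Over all genes, 2708 were called higher and 273 lower, against 1670 and 804 with median of ratios, 1413 and 986 with quantile normalization, and 1854 and 641 without mitochondrial and abundant genes. Replicate numbers did not pair the libraries (correlation of deviations between same-numbered libraries -0.0320 to 0.0620). With the replicate number as a block, 2968 genes and 3 members were called, with adjusted p-values of 0.00126 for Egfr, 0.00763 for Ereg, 0.0298 for Hbegf and 0.0265 for Erbb2. Among recomputed fold changes of members, 126 kept their direction and side of the threshold, 5 lost a call, 4 gained one and 4 reversed short of the threshold. With the longest transcript as length, 5 of 8 control levels moved and 2460 genes were called. Among recomputed counts of calls, 128 stayed within 1.5 times the main count, which does not say that they held the same genes, 8 were lower and 4 higher. Depth limits Areg and control Ereg, which rest on 0 to 6 fragments per library.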

Other observations

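Markers of rarer cell types were read in the same libraries, and their calls stand beside 14% of all genes called higher and 1.41% called lower. Of 7 markers of T cells and innate lymphoid cells, 2 were called higher and 0 lower, with summed levels of 2.60 to 6.83 FPKM in control and 5.88 to 11.1 FPKM in ANG II. Trac, a T-cell receptor gene, was the most abundant and had the largest log2 fold change (1.14 and 3.19 FPKM, log2 fold change 1.03, adjusted p = 0.00962 by limma with Benjamini-Hochberg adjustment), and its groups overlapped. The count was 2 under each of the 3 rescalings. Of 5 tested markers of mast cells and basophils, 0 were called by limma (0 also at an unadjusted p under 0.05, and 0 by limma-voom). Mcpt4 was called lower with quantile normalization (-0.53, limma adjusted p = 0.0258 after Benjamini-Hochberg). Kit was the most abundant (3.78 and 4.00 FPKM), and the sums were 6.13 to 9.91 and 7.57 to 8.27 FPKM.

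Of 7 tested markers of Schwann cells and neurons, Mbp, a myelin gene, was called higher (1.74 and 3.48 FPKM, not with quantile normalization) and Dbh, the enzyme that makes noradrenaline, lower by 0.87 on the log2 scale (2.58 and 0.960 FPKM). Their sums were 5.74 to 10.6 and 7.83 to 9.64 FPKM, Mbp was also the most abundant, and Th was at 0 in control. Of 7 tested markers of epicardium and epithelium, 1 was called higher, Krt18 (0.478 and 1.94 FPKM, log2 fold change 0.95, and 1 call under each of the 3 rescalings), with Wt1 the most abundant (3.78 and 4.65 FPKM). The groups of Krt18 overlapped, and the share called was near that over all genes.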
